A study of Mus musculus with 8 samples.

Results

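T cell receptor activation and immediate early genes were followed on 8 Affymetrix expression arrays of Tet2 wild-type and Tet2-/- helper T cells. The set held 36 named genes, each matched by its symbol to probesets that the platform annotation pairs with that symbol alone. Of these, 35 had such a probeset among the 19938 genes tested, and Nfkb1, which encodes the p50 subunit of NF-κB, had none. TET2 belongs to the enzymes that oxidise the methyl group of cytosine, a step towards its removal from DNA, and the title of the study names its part in T cell cytokine expression as the subject. There were 4 groups of 2 biological replicates: wild-type Th1, Tet2-/- Th1, wild-type Th17 and Tet2-/- Th17 cells. All came from C57BL/6 mice, as naive CD4+CD25-CD62LhighCD44low cells sorted from spleen and lymph node and stimulated through the receptor with plate-bound anti-CD3 and soluble anti-CD28. Th1 cultures received IL-12 at 10 ng/ml, IL-2 at 30 U/ml and anti-IL-4. Th17 cultures received TGF-β1 at 0.5 ng/ml, IL-6 at 10 ng/ml, anti-IFN-γ and anti-IL-4, and IL-2 was listed for the Th1 recipe and not for the Th17 recipe. Whether IL-23 and IL-1β were also added to these Th17 cultures, how the Tet2-/- allele was made, the hour of harvest and whether animals were pooled: none of these is given in the sources used here. The naive cells were not on the arrays, so every value below compares stimulated cultures with each other and none is a change from rest.

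Ligation of the T cell receptor and CD28 opens calcium entry, activates protein kinase C and Ras, and passes on to the transcription factors NFAT, NF-κB and AP-1 and to the MAP kinases. Immediate early genes such as Fos, Egr1 and Nr4a1 are transcribed within the first wave of that signal without new protein synthesis, and many encode transcription factors that carry it to later genes. The same signal induces its own brakes, among them the inhibitor of κB proteins, the ubiquitin-editing enzyme A20 (Tnfaip3), the dual-specificity phosphatases that inactivate MAP kinases, and the Sprouty proteins that limit Ras signalling.

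RefSeq's promoter table for GRCm38.p6 held 25 of the 36 genes, and the 250 bases before each transcription start were searched on both strands for 5 motifs to which these signals are known to lead. The first lines show the 3 Nr4a genes, which differed between Th17 and Th1 cells in opposite directions, with a match to the Egr site GCGNGGGCG in capitals. The next lines show Nfkb2, Ier3 and Dusp5, with matches to the NF-κB site (Nfkb2 and Ier3) or the serum response element's CArG box (Dusp5) in capitals.
Nr4a1: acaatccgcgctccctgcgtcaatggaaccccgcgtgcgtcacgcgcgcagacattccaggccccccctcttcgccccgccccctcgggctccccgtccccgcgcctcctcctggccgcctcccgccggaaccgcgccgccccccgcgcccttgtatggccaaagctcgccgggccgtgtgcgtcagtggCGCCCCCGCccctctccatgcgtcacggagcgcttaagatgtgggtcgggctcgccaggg
Nr4a2: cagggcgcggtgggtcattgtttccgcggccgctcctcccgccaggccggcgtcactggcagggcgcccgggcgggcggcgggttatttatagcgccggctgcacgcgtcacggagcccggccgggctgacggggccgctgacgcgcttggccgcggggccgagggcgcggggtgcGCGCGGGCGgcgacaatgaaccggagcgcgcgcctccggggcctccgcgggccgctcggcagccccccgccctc
Nr4a3: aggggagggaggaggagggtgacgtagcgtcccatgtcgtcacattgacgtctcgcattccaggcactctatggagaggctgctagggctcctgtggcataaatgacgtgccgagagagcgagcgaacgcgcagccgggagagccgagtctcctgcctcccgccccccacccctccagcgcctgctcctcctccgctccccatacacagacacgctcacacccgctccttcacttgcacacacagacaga
Nfkb2: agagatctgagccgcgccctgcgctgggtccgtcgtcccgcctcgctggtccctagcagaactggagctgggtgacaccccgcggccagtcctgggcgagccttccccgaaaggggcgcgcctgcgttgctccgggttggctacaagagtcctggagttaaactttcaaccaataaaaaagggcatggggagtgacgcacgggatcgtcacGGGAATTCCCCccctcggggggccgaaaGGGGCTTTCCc
Ier3: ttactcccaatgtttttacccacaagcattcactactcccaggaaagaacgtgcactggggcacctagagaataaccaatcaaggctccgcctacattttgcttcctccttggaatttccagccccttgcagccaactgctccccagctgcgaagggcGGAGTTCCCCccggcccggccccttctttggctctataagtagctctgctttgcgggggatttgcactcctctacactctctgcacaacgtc
Dusp5: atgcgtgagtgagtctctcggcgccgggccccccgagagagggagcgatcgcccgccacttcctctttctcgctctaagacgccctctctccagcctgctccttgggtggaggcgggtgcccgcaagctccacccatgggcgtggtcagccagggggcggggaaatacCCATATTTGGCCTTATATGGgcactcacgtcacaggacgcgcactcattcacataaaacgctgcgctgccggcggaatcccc
The windows are chr15:101266596-101266845 (plus strand) for Nr4a1, chr2:57124004-57124253 (minus strand) for Nr4a2 and chr4:48045055-48045304 (plus strand) for Nr4a3. Those of the others, all on the plus strand, are chr19:46304487-46304736 for Nfkb2, chr17:35821463-35821712 for Ier3 and chr19:53528895-53529144 for Dusp5. Each is read 5′ to 3′ and ends at the base before the start site, and for Nfkb2, which has 3 starts in the table, the most upstream was taken. The Egr site lay 60 to 52 bases before the start of Nr4a1, on the opposite strand, and 74 to 66 bases before that of Nr4a2. The window of Nr4a3 held 0 matches to the 5 motifs. Upstream of Nfkb2, one stretch matched on both strands 39 to 30 bases before the start, with a shifted match at 38 to 29, and another matched at 11 to 2. The Ier3 match lay 92 to 83 bases before the start, and Dusp5 carried 2 adjoining CArG boxes at 82 to 73 and 72 to 63.

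Of the 25 genes, 10 held an NF-κB site, against 8.23% of the 27025 genes in the table: Egr2, Fos, Fosb, Fosl2, Ier3, Nfkb2, Nfkbia, Nfkbid, Rel and Tnfaip3. An Egr site was found in 6 of them (Dusp2, Fosb, Fosl2, Nfkb2, Nr4a1 and Nr4a2), against 5.33% of all genes. The CArG box was found in 2 (Dusp5 and Egr2), against 1.62%. The cAMP response element TGACGTCA was found in 3 (Dusp1, Nfkbid and Rcan1), against 1.77%, and the AP-1 site TGANTCA in 3 (Nfkb2, Rcan1 and Tnfaip3), against 7.82%. A gene counted when the window of any of its starts matched, and the 25 genes had 35 windows, against 32851 for the 27025. By window, the NF-κB site was in 34.3% against 7.25% and the Egr site in 17.1% against 4.7%. The Egr and AP-1 matches of Nfkb2 lay before its other starts, which are not shown. A match describes the letters of a window and does not show that a factor binds there.

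The arrays had medians between 6.47 and 6.53 on the deposited log2 scale, and arrays of one group correlated at 0.9901 to 0.994 over all genes. T-bet (Tbx21) read 10.20 to 10.44 in Th1 and 6.95 to 7.89 in Th17 cells, and Il17a read 5.89 to 6.20 in Th1 and 8.91 to 9.85 in Th17 cells. Cd4 read 10.15 to 10.44 and Cd3e 11.00 to 11.49 on the 8 arrays, while the mean level of the 3 measured B cell markers was 4.99 to 5.25, that of the 3 NK markers 4.31 to 4.60 and that of the 5 myeloid markers 5.56 to 5.85. Of these markers, the myeloid Cd68 (7.55 to 7.99 in Th1 and 7.28 to 7.45 in Th17 cells) and the B cell Cd79b (6.55 to 6.77) lay above the array medians. The Tet2 probeset read 7.97 to 8.14 in Th1 and 8.37 to 8.53 in Th17 cells with no separation by genotype, and since its position relative to the deleted part is not known here it checks no label. Sex-linked genes set the Th17 arrays apart from each other: Xist read 5.20 and 10.09 in wild-type and 8.62 and 11.27 in Tet2-/- Th17 cells against 4.83 to 5.11 in Th1 cells. The mean of the 3 Y-linked genes was 8.80, 7.82, 8.71 and 4.85 on the same 4 Th17 arrays and 7.94 to 8.24 in Th1 cells. Wild-type Th17 replicate 1 was thus at the Xist level of the Th1 arrays, and the other 3 Th17 arrays were above it. Counts are therefore also given from a fit that takes the mean of the Y-linked genes as a covariate, and without wild-type Th17 replicate 1 and Tet2-/- Th17 replicate 2, the Th17 arrays with the highest and the lowest Y-linked level. The latter does not match the cell types in sex-linked genes, since the Th17 arrays it keeps have Xist at 10.09 and 8.62.

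The first comparison asked how the receptor-induced genes differed between the Th17 and the Th1 programme. Averaged over both genotypes (4 arrays against 4), 18 of the 35 measured genes differed at an adjusted p under 0.05, 5 higher and 13 lower in Th17 cells. Over all genes tested 22.1% passed, 13.6% higher and 8.52% lower. Higher in Th17 cells were Cd69, Egr1, Nr4a1, Nfkbid and Fos. Lower were Nr4a3, Nr4a2, Nfkb2, Ier3, Batf3, Dusp5, Dusp6, Spry1, Junb, Dusp4, Egr2, Jun and Dusp1. Cd69 was 2.03-fold higher and Nr4a3 2.1-fold lower, the ends of the range. The 4 arrays of one cell type did not overlap those of the other for 18 of the 35 genes, or 51.4%, against 24.1% of all genes. The median log2 difference, Th17 minus Th1, was -0.18 over the 35 genes and -0.02 over all genes. With dim genes left out of the fit, which kept 34 of the 35, the medians were -0.161 and 0.0855. The shares over all genes given in this report include dim genes and are not matched to the members by level. With the Y-linked covariate 17 of the 35 passed. Without wild-type Th17 replicate 1 and Tet2-/- Th17 replicate 2 together, 11 passed and the median was -0.0443. Adjusted p-values are from limma with Benjamini-Hochberg adjustment over all 19938 genes and measure only the spread between the arrays of a group. The mean level of the 5 measured stress and dissociation markers was 8.46 to 8.63 in Th1 and 8.05 to 8.20 in Th17 cells. Without Atf3, which read 9.32 to 9.84 in Th1 and 7.30 to 8.01 in Th17 cells, the mean of the other 4 was 8.15 to 8.34 and 8.15 to 8.28. That mean joins genes that leaned opposite ways. Zfp36 (7.45 to 7.88 in Th1 and 7.78 to 8.22 in Th17 cells) and Dnajb1 (8.63 to 8.76 and 8.68 to 9.08) leaned higher in Th17 cells. Hspa1a (6.68 to 7.31 and 6.54 to 6.77) and Hsph1 (9.38 to 10.06 and 9.17 to 9.51) leaned lower. Fewer cells expressing a gene and less RNA of it per cell cannot be told apart in these bulk cultures, nor can the effects of the single components of the 2 media.

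**Figure D1:**
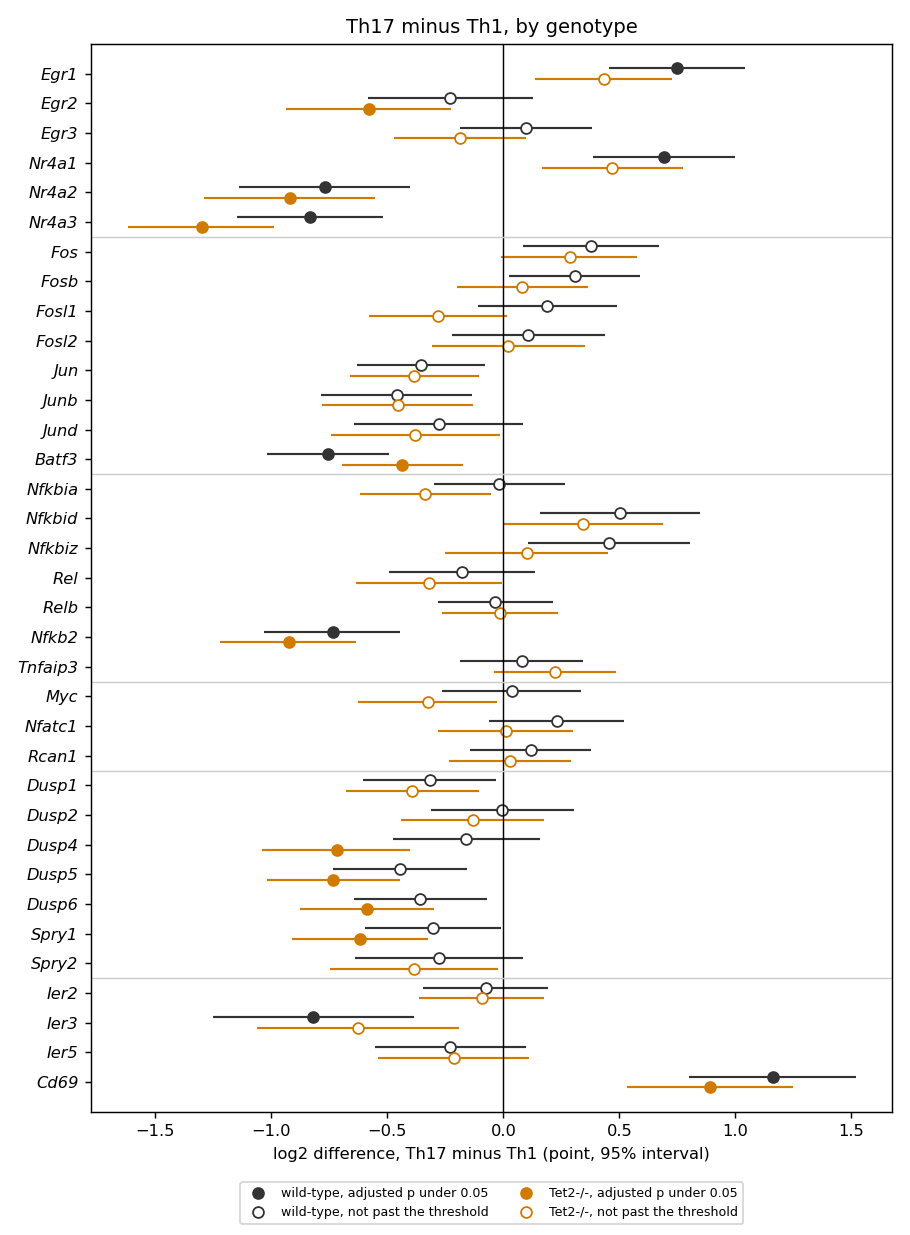
Difference between Th17 and Th1 cells (log2 units, Th17 minus Th1, horizontal axis) for each of the 35 genes in wild-type and Tet2-/- cells, as points with 95% intervals, filled where the adjusted p was under 0.05. Cd69 lies farthest to the right (1.16 in wild-type cells) and Nr4a3 farthest to the left (-1.30 in Tet2-/- cells). All 7 phosphatase and Sprouty genes lie below 0 in both genotypes, Dusp2 only just so in wild-type cells (-0.00492). In wild-type cells, where 8.47% of all genes passed, 0 of these 7 are filled. In Tet2-/- cells, where 10.4% of all genes passed, 4 are filled.

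Among the early growth response and Nr4a factors, 5 of 6 differed between the cell types (83.3%, against 22.1% of all genes). Of these, 2 were higher and 3 lower in Th17 cells, and members of one family went opposite ways. Nr4a3 is an orphan nuclear receptor induced by the T cell receptor. It read 9.89 and 10.19 in wild-type Th1, 10.23 and 10.12 in Tet2-/- Th1, 9.18 and 9.24 in wild-type Th17 and 9.03 and 8.71 in Tet2-/- Th17 cells. All 4 Th17 arrays lay below all 4 Th1 arrays, with a difference of -1.07 ± 0.103 (SE; adjusted p = 1.55e-05). Nr4a2, a second member of the family, read 9.26 and 9.62 in wild-type Th1, 9.30 and 9.53 in Tet2-/- Th1, 8.78 and 8.56 in wild-type Th17 and 8.70 and 8.29 in Tet2-/- Th17 cells. It too was lower on every Th17 array, 1.8-fold on average (-0.85 ± 0.12, adjusted p = 0.000344).

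Nr4a1 (Nur77), widely used as a reporter of receptor signal strength, went the other way. Its levels were 10.30 and 10.32 in wild-type Th1, 10.33 and 10.60 in Tet2-/- Th1, 10.92 and 11.08 in wild-type Th17 and 11.06 and 10.81 in Tet2-/- Th17 cells. The groups did not overlap, and the difference of 0.58 ± 0.0993 (adjusted p = 0.00133) put Nr4a1 1.5-fold higher in Th17 cells. Egr1, a zinc finger factor downstream of the MAP kinase ERK, read 9.05 and 9.24 in wild-type Th1, 9.49 and 9.19 in Tet2-/- Th1, 9.84 and 9.95 in wild-type Th17 and 9.76 and 9.78 in Tet2-/- Th17 cells. Every Th17 array was above every Th1 array, and Egr1 was 1.51-fold higher in Th17 cells (0.59 ± 0.0961, adjusted p = 0.000932).

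Egr2 and Egr3 belong to the same family as Egr1 and are known to restrain T cell activation as well as to follow it. Egr2 read 9.61 and 9.82 in wild-type Th1, 10.14 and 9.64 in Tet2-/- Th1, 9.54 and 9.43 in wild-type Th17 and 9.40 and 9.21 in Tet2-/- Th17 cells. It was lower in Th17 cells (-0.41 ± 0.116, adjusted p = 0.0256), with the nearest arrays of the 2 cell types 9.61 and 9.54. That call was lost on leaving out any of wild-type Th17 replicate 2 (adjusted p = 0.0859), Tet2-/- Th17 replicate 2 (0.0971), wild-type Th1 replicate 2 (0.07) or Tet2-/- Th1 replicate 1 (0.102), without wild-type Th17 replicate 1 and Tet2-/- Th17 replicate 2 together (0.145), and with the Y-linked covariate (0.0575). Egr3 stayed between 8.05 and 8.40 on all 8 arrays, and its difference was -0.04 (95% interval -0.24 to 0.16).

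**Figure D2:**
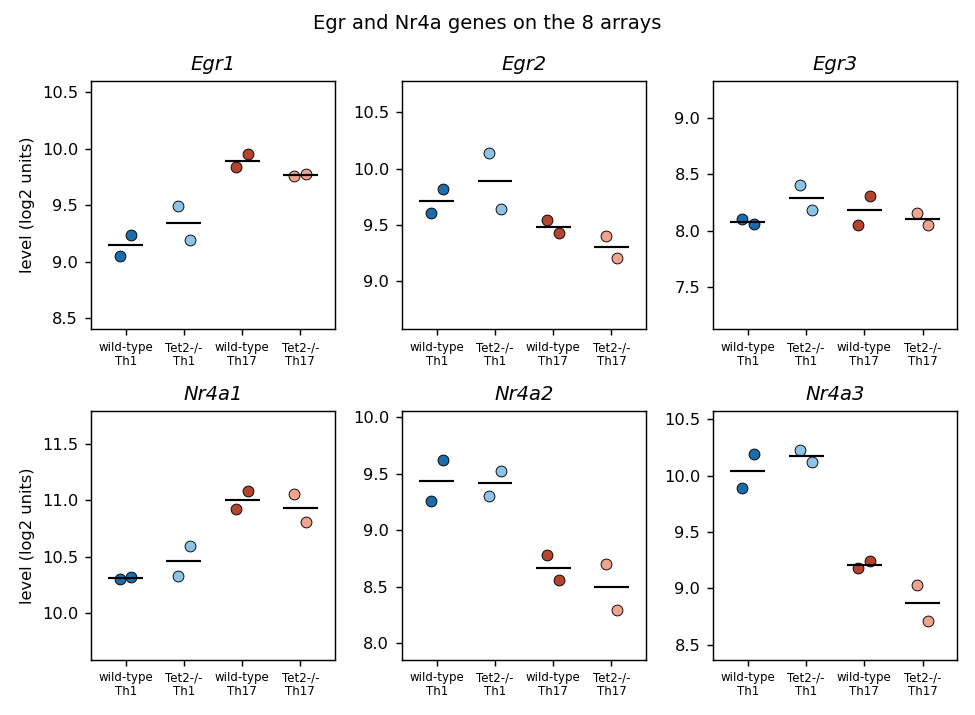
Levels of the 6 Egr and Nr4a genes (log2 units, vertical axis) on each of the 8 arrays, by group, with bars at the mean of the 2 arrays; every panel spans the same range of log2 units. Egr1 and Nr4a1 are higher on all 4 Th17 arrays, Nr4a2 and Nr4a3 are lower on all 4, and Egr3 overlaps between the groups.

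The AP-1 subunits differed in 4 of 8 cases (50%, against 22.1% of all genes), 1 higher and 3 lower in Th17 cells. Batf3, a small basic leucine zipper partner of Jun proteins, read 7.63 and 7.58 in wild-type Th1, 7.16 and 7.34 in Tet2-/- Th1, 6.75 and 6.95 in wild-type Th17 and 6.87 and 6.75 in Tet2-/- Th17 cells. The 2 cell types did not overlap, and Batf3 was 1.51-fold lower in Th17 cells (-0.59 ± 0.0853, adjusted p = 0.000384). Batf3 is also a marker of dendritic cells. The other 5 dendritic markers had a mean level of 6.21 to 6.40 in Th1 and 5.93 to 6.03 in Th17 cells. H2-Ab1 had the widest gap among them, at 7.59 to 8.72 in Th1 and 6.79 to 7.21 in Th17 cells, and without it the mean of the remaining 4 was 5.82 to 5.93 and 5.64 to 5.77. The part of such cells in the Batf3 difference was not tested.

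Jun and Junb encode the partners of the Fos proteins in AP-1. Junb read 8.77 and 8.55 in wild-type Th1, 8.56 and 8.75 in Tet2-/- Th1, 8.03 and 8.37 in wild-type Th17 and 8.31 and 8.09 in Tet2-/- Th17 cells, a difference of -0.46 ± 0.106 (adjusted p = 0.0087). Levels of Jun were 8.60 and 8.51 in wild-type Th1, 8.72 and 8.64 in Tet2-/- Th1, 8.07 and 8.34 in wild-type Th17 and 8.36 and 8.23 in Tet2-/- Th17 cells. Both genes were lower on every Th17 array, and Jun differed by -0.37 ± 0.0903 (adjusted p = 0.0115). Leaving out Tet2-/- Th17 replicate 2 took Jun just past the threshold (adjusted p = 0.0516), and without that array and wild-type Th17 replicate 1 together the values were 0.152 for Jun and 0.13 for Junb. Jund, the third Jun protein, differed by -0.33 and did not pass (adjusted p = 0.0663).

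Fos, the classic immediate early gene, read 6.68 and 6.28 in wild-type Th1, 6.59 and 6.75 in Tet2-/- Th1, 6.84 and 6.88 in wild-type Th17 and 6.99 and 6.92 in Tet2-/- Th17 cells. These levels are close to the array medians. The Th17 arrays were the higher ones (0.33 ± 0.0956, adjusted p = 0.0261), but 6 of the 8 arrays ended the call when left out, with adjusted p-values of 0.053 (Tet2-/- Th17 replicate 2), 0.055 and 0.0771 (wild-type Th17 replicates 1 and 2), 0.0741 (wild-type Th1 replicate 2), 0.0899 (Tet2-/- Th17 replicate 1) and 0.0947 (Tet2-/- Th1 replicate 1). It was 0.0983 without wild-type Th17 replicate 1 and Tet2-/- Th17 replicate 2 together. The other Fos family genes, Fosb, Fosl1 and Fosl2, had differences of 0.19, -0.05 and 0.06 and did not pass.

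Of the 7 measured NF-κB subunits and inhibitors, 1 was higher and 1 was lower in Th17 cells. That share of 28.6% was near the 22.1% of all genes. Nfkb2 encodes p100, the precursor of the p52 subunit of the alternative pathway. It read 10.00 and 9.96 in wild-type Th1, 10.29 and 10.11 in Tet2-/- Th1, 9.18 and 9.31 in wild-type Th17 and 9.41 and 9.14 in Tet2-/- Th17 cells. The highest Th17 array (9.41) lay below the lowest Th1 array (9.96), and Nfkb2 was 1.78-fold lower in Th17 cells (-0.83 ± 0.0944, adjusted p = 6.22e-05). Relb, which pairs with p52, differed by -0.02 (95% interval -0.20 to 0.15).

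Nfkbid encodes IκBNS, a nuclear inhibitor of κB protein. It read 8.09 and 8.22 in wild-type Th1, 8.27 and 8.02 in Tet2-/- Th1, 8.44 and 8.88 in wild-type Th17 and 8.61 and 8.38 in Tet2-/- Th17 cells. All Th17 arrays were above all Th1 arrays, with a difference of 0.42 ± 0.112 (adjusted p = 0.0176). The call was lost without wild-type Th17 replicate 2 (adjusted p = 0.0775), Tet2-/- Th17 replicate 1 (0.0841), wild-type Th1 replicate 1 (0.0546) or Tet2-/- Th1 replicate 2 (0.0688), and after a second quantile normalization (0.0541). Nfkbiz, the related IκBζ known for its part in Th17 development, had a difference of 0.28 (adjusted p = 0.103). Rel, the c-Rel subunit, differed by -0.25 (adjusted p = 0.104), Nfkbia, the IκBα feedback inhibitor, by -0.18 (adjusted p = 0.196), and Tnfaip3 by 0.15 (adjusted p = 0.238).

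None of Nfatc1, Rcan1 and Myc passed the test, which 22.1% of all genes did. Nfatc1, the NFAT factor induced by its own pathway, differed by 0.12 (95% interval -0.09 to 0.32), and Rcan1, the calcineurin inhibitor that NFAT induces, by 0.07 (-0.11 to 0.26). Myc, which drives growth of activated T cells, read 11.05 to 11.54 on the 8 arrays and differed by -0.15 (-0.36 to 0.07).

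The phosphatases and Sprouty genes, which damp the MAP kinases, were the group with one direction. Averaged over the genotypes, 5 of 7 passed as lower in Th17 cells (71.4%, against 8.52% of all genes) and 0 as higher. All 7 averaged differences lay below 0, with a median of -0.44. Over all genes 10771 of 19938 lay below 0, with a median of -0.02. Within wild-type cells alone 0 of the 7 passed, against 3.17% of all genes that passed as lower. Within Tet2-/- cells alone 4 passed as lower, against 3.29% of all genes. The direct test of the difference between the genotypes passed for 0 of the 7. Dusp5 encodes a nuclear phosphatase specific for ERK. It read 9.31 and 9.27 in wild-type Th1, 9.51 and 9.48 in Tet2-/- Th1, 8.74 and 8.95 in wild-type Th17 and 8.91 and 8.62 in Tet2-/- Th17 cells, and the cell types did not overlap. Dusp5 was 1.5-fold lower in Th17 cells (-0.59 ± 0.0942, adjusted p = 0.000829). Dusp6, the cytoplasmic ERK phosphatase, read 9.34 and 9.46 in wild-type Th1, 9.40 and 9.33 in Tet2-/- Th1, 8.92 and 9.16 in wild-type Th17 and 8.88 and 8.67 in Tet2-/- Th17 cells. It was lower on all 4 Th17 arrays (-0.47 ± 0.0938, adjusted p = 0.00348).

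Spry1 encodes an inhibitor of Ras and phospholipase C signalling. Its levels were 9.92 and 9.81 in wild-type Th1, 10.15 and 10.01 in Tet2-/- Th1, 9.42 and 9.70 in wild-type Th17 and 9.53 and 9.39 in Tet2-/- Th17 cells, again without overlap (-0.46 ± 0.0952, adjusted p = 0.00443). Dusp4, a nuclear phosphatase of ERK and JNK, read 8.72 and 9.03 in wild-type Th1, 9.18 and 9.17 in Tet2-/- Th1, 8.58 and 8.85 in wild-type Th17 and 8.58 and 8.34 in Tet2-/- Th17 cells. The wild-type arrays of the 2 cell types overlapped and the Tet2-/- arrays did not; the averaged difference was -0.44 ± 0.103 (adjusted p = 0.00949). Dusp1, which acts on p38 and JNK as well, read 8.61 and 8.80 in wild-type Th1, 8.89 and 8.91 in Tet2-/- Th1, 8.33 and 8.44 in wild-type Th17 and 8.65 and 8.37 in Tet2-/- Th17 cells (-0.35 ± 0.0933, adjusted p = 0.017). One Th17 array exceeded the lowest Th1 array, and the call was lost without wild-type Th17 replicate 1 (adjusted p = 0.056) or Tet2-/- Th17 replicate 2 (0.0836). Without those 2 arrays together the calls of Dusp4 (adjusted p = 0.142), Dusp6 (0.0773), Spry1 (0.0923) and Dusp1 (0.189) were lost and that of Dusp5 was kept. Dusp2, which is highly restricted to activated leukocytes, differed by -0.07 (95% interval -0.29 to 0.15), and Spry2, below the median level of every array, by -0.33 (adjusted p = 0.0634).

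**Figure D3:**
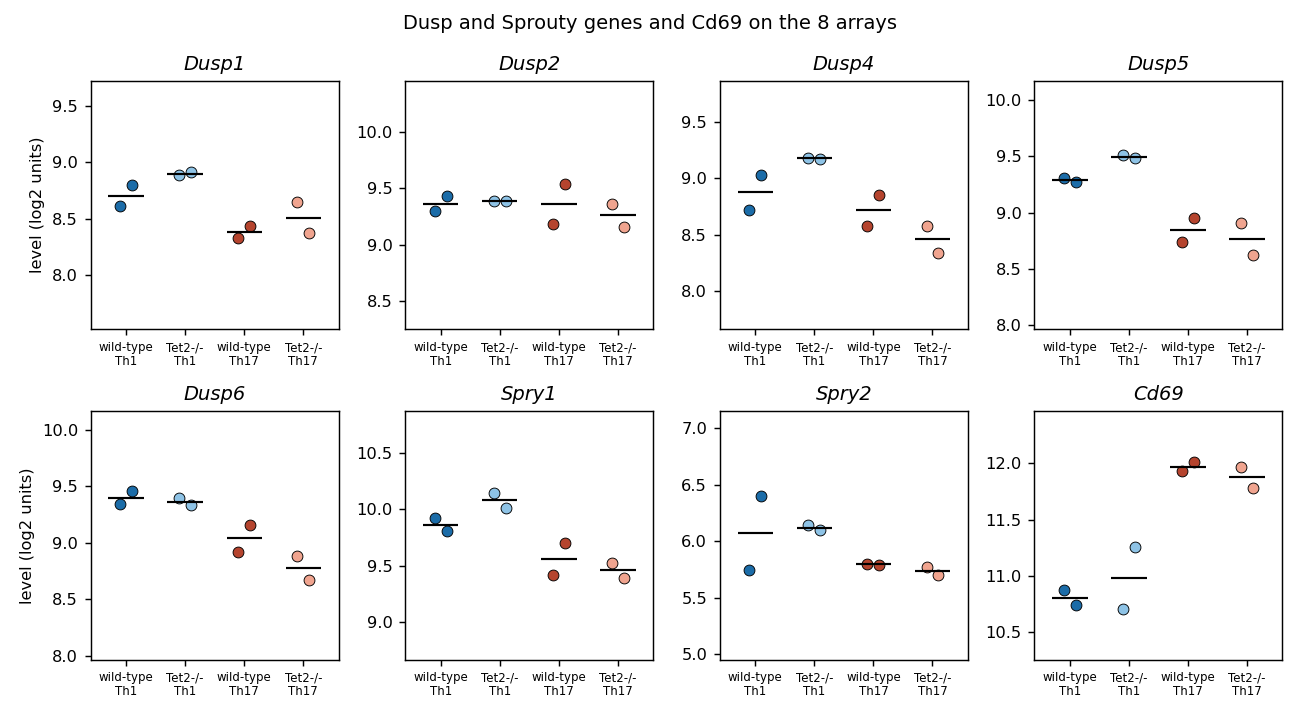
Levels of the 7 phosphatase and Sprouty genes and of Cd69 (log2 units, vertical axis) on each of the 8 arrays, by group, with bars at the mean of the 2 arrays and panels of equal span. Dusp5, Dusp6 and Spry1 are lower on all 4 Th17 arrays, Dusp4 separates the cell types in Tet2-/- and not in wild-type cells, Dusp2 overlaps, and Cd69 is higher on all 4 Th17 arrays.

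Cd69 and Ier3 were the called genes among the early response group of 4 (50%, against 22.1% of all genes). The first was higher and the second lower in Th17 cells. Cd69 encodes a surface lectin that appears within hours of receptor ligation and holds cells in lymphoid tissue. It read 10.88 and 10.74 in wild-type Th1, 10.71 and 11.26 in Tet2-/- Th1, 11.93 and 12.01 in wild-type Th17 and 11.97 and 11.78 in Tet2-/- Th17 cells. Every Th17 array was above every Th1 array (1.02 ± 0.117, adjusted p = 6.64e-05). Ier3, a stress-inducible survival gene and NF-κB target, read 7.83 and 8.21 in wild-type Th1, 8.07 and 7.95 in Tet2-/- Th1, 6.84 and 7.56 in wild-type Th17 and 7.30 and 7.47 in Tet2-/- Th17 cells. It was 1.65-fold lower in Th17 cells (-0.72 ± 0.141, adjusted p = 0.00322), with wild-type Th17 replicate 1 the lowest array. Ier2 and Ier5, nuclear proteins of the same early wave, differed by -0.09 (95% interval -0.28 to 0.11) and -0.22 (-0.45 to 0.01).

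Within wild-type cells alone (2 arrays against 2), 8 of 35 genes passed, 3 higher and 5 lower in Th17 cells, or 22.9% against 8.47% of all genes (5.3% higher and 3.17% lower). The 3 higher ones were Cd69 (1.16 ± 0.166, adjusted p = 0.000925), Egr1 (0.75 ± 0.136, adjusted p = 0.00478) and Nr4a1 (0.69 ± 0.14, adjusted p = 0.00958). Lower were Nr4a3 (-0.83 ± 0.145, adjusted p = 0.00378), Batf3 (-0.75 ± 0.121, adjusted p = 0.00212), Nfkb2 (-0.74 ± 0.134, adjusted p = 0.00482), Nr4a2 (-0.77 ± 0.169, adjusted p = 0.0148) and Ier3 (-0.82 ± 0.2, adjusted p = 0.0247). Without wild-type Th17 replicate 2 the count was 5, and the calls of Egr1 (adjusted p = 0.0541), Nr4a1 (0.102) and Nr4a2 (0.131) were lost. Nr4a2 also depended on wild-type Th1 replicate 2 (0.0848 without it), and Ier3 on that array (0.13) and on wild-type Th17 replicate 1 (0.162). Without wild-type Th17 replicate 1 and Tet2-/- Th17 replicate 2 together the count was 6: Nfkb2 (0.0687), Nr4a1 (0.0541) and Ier3 (0.215) were lost and Nfkbid was gained. With the Y-linked covariate it was 8. Cd69, Nr4a3 and Batf3 passed under all 18 alternatives run.

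Within Tet2-/- cells alone, 10 of 35 passed, 1 higher and 9 lower in Th17 cells, or 28.6% against 10.4% of all genes (7.14% higher and 3.29% lower). Cd69 was the higher one (0.89 ± 0.166, adjusted p = 0.00461). Nr4a3 showed the largest difference of the 35 genes, a 2.47-fold lower level (-1.30 ± 0.145, adjusted p = 0.000122), and Nfkb2 followed (-0.93 ± 0.134, adjusted p = 0.000808). The others were Nr4a2 (-0.92), Dusp5 (-0.73), Dusp4 (-0.72), Spry1 (-0.62), Dusp6 (-0.59), Egr2 (-0.58) and Batf3 (-0.43), with adjusted p-values between 0.00387 and 0.0413. Nfkb2 and Nr4a3 passed under all 18 alternatives, and the other 8 calls each depended on at least 1 array.

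The count in Tet2-/- cells was 3 without Tet2-/- Th17 replicate 2, 5 without Tet2-/- Th1 replicate 1 and 6 without Tet2-/- Th17 replicate 1. It was 3 without wild-type Th17 replicate 1 and Tet2-/- Th17 replicate 2 together. With the Y-linked covariate it was 7, and Batf3 (adjusted p = 0.107), Egr2 (0.133) and Dusp6 (0.0597) did not pass. Without Tet2-/- Th17 replicate 2, adjusted p-values were 0.0563 for Nr4a2, 0.0584 for Dusp5, 0.0857 for Dusp4, 0.133 for Dusp6, 0.104 for Spry1, 0.207 for Batf3 and 0.231 for Egr2. Leaving out Tet2-/- Th1 replicate 1 gave 0.0537 for Dusp4, 0.0935 for Dusp6, 0.0962 for Spry1, 0.0706 for Batf3 and 0.323 for Egr2. Leaving out Tet2-/- Th17 replicate 1 gave 0.0696 for Cd69, 0.0541 for Spry1, 0.118 for Batf3 and 0.113 for Egr2. Tet2-/- Th1 replicate 2 carried the calls of Batf3 (0.212 without it) and Dusp6 (0.0516), and Egr2 was also lost without either wild-type Th17 array (0.0551 and 0.0553), whose part was only in the shared estimate of the spread.

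Both genotypes called 5 of the genes, Nr4a2, Nr4a3, Nfkb2, Cd69 and Batf3, each in the same direction. These were 62.5% of the wild-type and 50% of the Tet2-/- calls, and over all genes the shares were 62.5% and 50.8%. The sign of the difference was the same in both genotypes for 32 of 35 genes (91.4%), against 73.7% of all genes. The exceptions were Egr3 (0.10 in wild-type and -0.19 in Tet2-/- cells), Fosl1 (0.19 and -0.28) and Myc (0.04 and -0.33). None of the 35 was shown to differ between the genotypes in this comparison, as the tests of the difference below give.

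**Figure D4:**
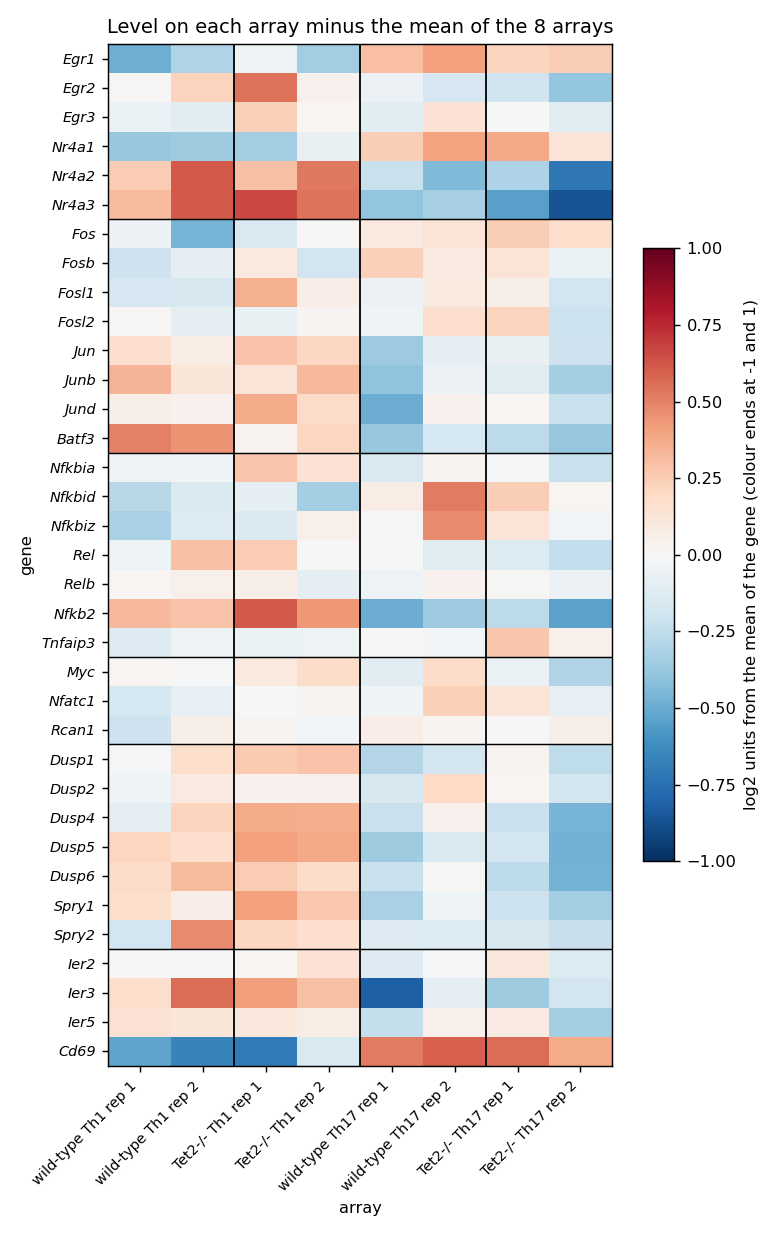
Level of each of the 35 genes on each of the 8 arrays as the difference from its own mean over the arrays (colour, log2 units), with genes ordered by role. Cd69 is below its mean on the 4 Th1 arrays and above it on the 4 Th17 arrays, Nr4a2, Nr4a3 and Nfkb2 show the opposite, and Ier3 on wild-type Th17 replicate 1 (6.84) is one of the deepest cells.

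Genes upstream in the pathway, which are not part of the 36, were counted in the same way, beside the 13.6% of all genes that were higher and the 8.52% that were lower in Th17 cells. Of 17 measured genes of proximal receptor signalling, 8 passed (47.1%), 7 higher and 1 lower in Th17 cells averaged over the genotypes. The adaptor Grap2 (1.11), phospholipase Plcg1 (0.64), the co-receptor Cd28 (0.42) and the kinase Zap70 (0.42) had the smallest adjusted p-values, from 2.88e-05 to 0.00759, and the ubiquitin ligase Cblb was the lower one (-0.31, adjusted p = 0.0392). Of 22 measured transducers between the receptor and NFAT, NF-κB or AP-1, 12 passed (54.5%), 11 higher and 1 lower. The leading ones were the p38 kinase Mapk14 (0.79), the paracaspase Malt1 (0.68), Nfatc3 (0.69) and the calcium sensor Stim1 (0.67), with adjusted p-values up to 0.000172. Orai1, the calcium channel that Stim1 opens, was the lower one (-0.55, adjusted p = 0.00319).

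Of 39 other immediate early and activation genes, 17 passed (43.6%), 5 higher and 12 lower in Th17 cells, against 22.1% of all genes. Irf8 (-1.98), the stress-induced Atf3 (-1.83) and the TNF receptor adaptor Traf1 (-0.77) were lower and the GTPase Gem (1.06) was higher, with adjusted p-values up to 0.000103. Of 16 genes reported to be switched on with NFAT or Egr in hyporesponsive T cells, 11 passed (68.8%), 3 higher and 8 lower. Lag3 (-1.26), Tigit (-1.09) and Entpd1 (-0.65) were lower and Ctla4 (1.22) was higher, with adjusted p-values up to 5.24e-05, and the group means of Entpd1 lay below the array medians. Cblb is in both the first and the last of these 4 lists.

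The second comparison asked what loss of Tet2 did to these genes. In Th1 cells 0 of 35 passed, against 0.00502% of all genes (1 gene, Ifng, which is not among the 36). At an unadjusted p under 0.05 there were 2 of 35 (5.71%, against 5.74% of all genes). Fosl1, the AP-1 subunit Fra-1, read 7.90 and 7.91 in wild-type and 8.43 and 8.14 in Tet2-/- Th1 cells, both Tet2-/- arrays being the higher ones, a difference of 0.38 ± 0.137 (adjusted p = 0.824). Batf3 read 7.63 and 7.58 in wild-type and 7.16 and 7.34 in Tet2-/- Th1 cells, without overlap (-0.36 ± 0.121, adjusted p = 0.824). The difference lay above 0 for 27 of the 35 genes, with a median of 0.13, against 52.2% and 0.01 over all genes. The 2 arrays of each genotype did not overlap for 16 of 35 genes, 14 of them higher and 2 lower in Tet2-/- cells, or 45.7%, against 32.7% of all genes (18.3% higher and 14.4% lower). The 95% intervals of the 35 differences reached from -0.62 (Batf3) to 0.68 (Fosl1), so changes beyond about 1.6-fold lay outside all of them.

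The 14 genes with both Tet2-/- Th1 arrays above both wild-type Th1 arrays came from every role. They were Egr3 and Nr4a1, the AP-1 subunits Fosl1, Jun and Jund, Myc and Nfatc1, the NF-κB genes Nfkbia and Nfkb2, Ier2, and the feedback genes Dusp1, Dusp4, Dusp5 and Spry1. Their differences ran from 0.07 (Ier2) to 0.38 (Fosl1), and none passed. For the IκBα gene Nfkbia the levels were 10.24 and 10.23 in wild-type and 10.55 and 10.42 in Tet2-/- Th1 cells (0.26 ± 0.13, adjusted p = 0.853). Among the 7 phosphatase and Sprouty genes 6 had differences above 0, with a median of 0.20, and 0 passed.

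In Th17 cells 0 of 35 passed, against 0% of all genes. At an unadjusted p under 0.05 there was 1 of 35 (2.86%, against 4.25% of all genes), Nr4a3. Its levels of 9.18 and 9.24 in wild-type and 9.03 and 8.71 in Tet2-/- Th17 cells did not overlap (-0.34 ± 0.145, adjusted p = 0.999). The difference lay below 0 for 26 of the 35 genes, with a median of -0.07, against 0.02 over all genes, of which 56.6% lay above 0. Arrays did not overlap for 9 of 35, 2 higher and 7 lower in Tet2-/- cells, or 25.7%, against 33.2% of all genes (19.9% higher and 13.3% lower). The 2 higher were Fos and Tnfaip3, and the 7 lower were Egr1, Egr2, Nr4a3, Rel, Dusp4, Dusp6 and Spry2. For Dusp4 the nearest arrays of the 2 genotypes both read 8.58 to 2 decimals. The 95% intervals reached from -0.66 (Nr4a3) to 0.62 (Ier3). Each Th17 array moved this median: it was 0.0361 without wild-type Th17 replicate 2, 0.0186 without Tet2-/- Th17 replicate 2, -0.153 without wild-type Th17 replicate 1 and -0.179 without Tet2-/- Th17 replicate 1. With the level of Y-linked genes as a covariate it was -0.0146, and between 4 and 22 of the 35 differences lay above 0 over the 18 alternatives.

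**Figure D5:**
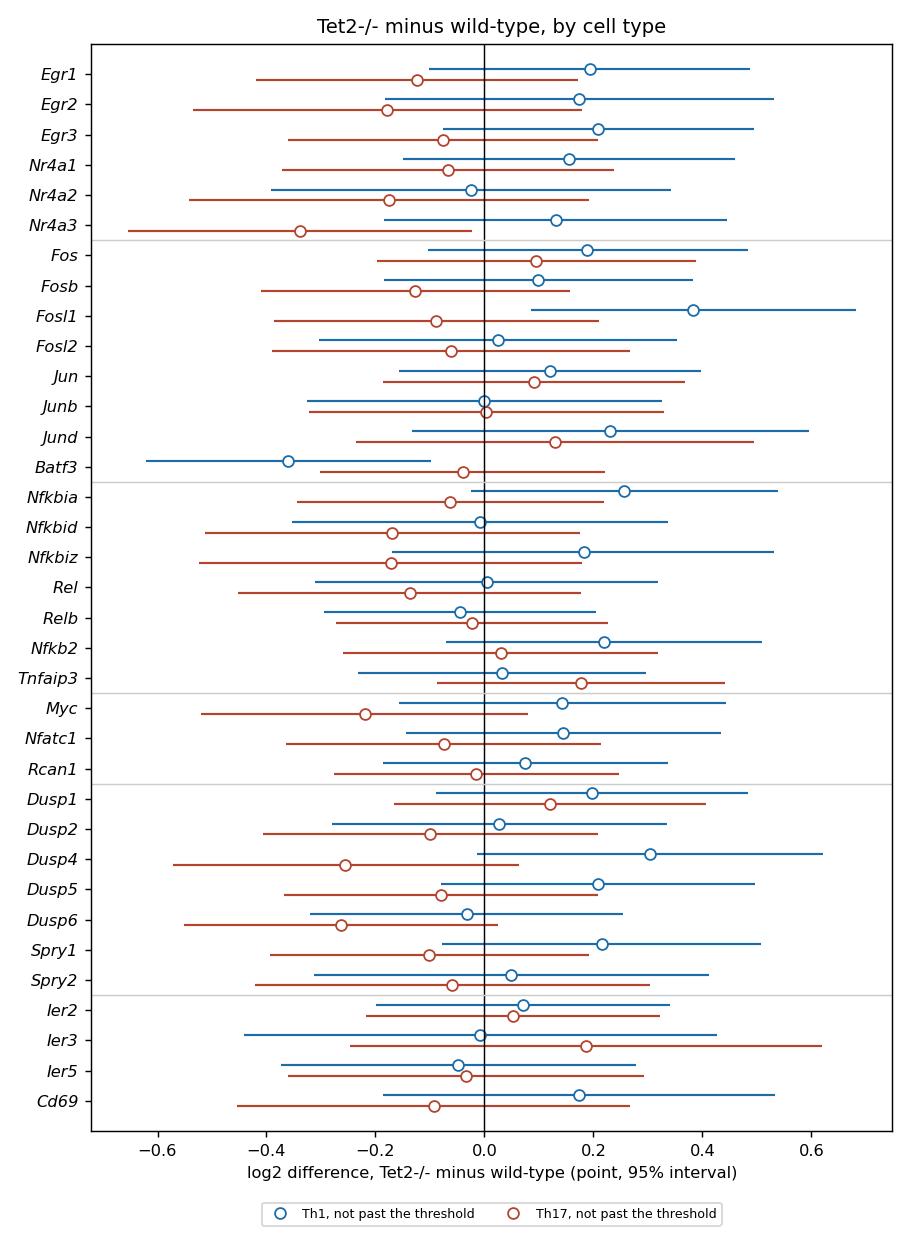
Difference between Tet2-/- and wild-type cells (log2 units, Tet2-/- minus wild-type, horizontal axis) for each of the 35 genes in Th1 and in Th17 cells, as points with 95% intervals; open points did not pass the adjusted threshold. All points are open, 27 of the Th1 points lie above 0 and 26 of the Th17 points lie below 0.

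The difference between these 2 effects, the effect in Th17 minus that in Th1 cells, was tested directly. It passed for 0 of 35 genes, against 0% of all genes, and at an unadjusted p under 0.05 there were 3 of 35 (8.57%, against 4.55% of all genes). For Dusp4 the effect of genotype was 0.30 in Th1 and -0.25 in Th17 cells, and the difference between them was -0.56 ± 0.207 (adjusted p = 0.999). Fosl1 read 8.01 and 8.17 in wild-type and 8.13 and 7.88 in Tet2-/- Th17 cells, an effect of -0.09 beside 0.38 in Th1 cells, and the difference was -0.47 (adjusted p = 0.999). For Nr4a3 the effects were 0.13 and -0.34, with a difference of -0.47 (adjusted p = 0.999). The median of the 35 differences was -0.16, against 0.01 over all genes, and 29 of 35 lay below 0, while 52.7% of all genes lay above 0. That median was -0.302 without wild-type Th17 replicate 1, -0.309 without Tet2-/- Th17 replicate 1 and -0.0866 without Tet2-/- Th17 replicate 2. Averaged over both cell types the effect of genotype passed for 0 of 35, against 0% of all genes, and Batf3 was the 1 gene at an unadjusted p under 0.05, against 5.32% of all genes (-0.20, adjusted p = 0.924). In the 4 lists of upstream and related genes 0 passed in either genotype comparison, against 0.00502% of all genes in Th1 and 0% in Th17 cells. At an unadjusted p under 0.05 there were 2 of 17, 1 of 22, 4 of 39 and 2 of 16 in Th1 cells, in the order given above. These were 11.8%, 4.55%, 10.3% and 12.5%, against 5.74% of all genes. In Th17 cells there were 1, 3, 4 and 0 of the same, or 5.88%, 13.6%, 10.3% and 0%, against 4.25% of all genes.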

How the data were processed

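The authors deposited log2 values of Affymetrix arrays, for which the submitters' processing notes name RMA and Partek. No version, genome build or log base is given in the sources used here. Base 2 was inferred, since the values run from 2.71 to 14.1. Of 35556 probesets, 21789 carried 1 gene symbol in the platform annotation, 1621 several and 12146 none. Each of the 19938 genes was read from its probeset with the highest mean over the 8 arrays, and each measured member had only 1. The array gives no read depth, and 2 arrays a group limit the precision. The model held 1 mean per group over the 8 arrays and was run in limma 3.58.1 under R 4.3.3 (lmFit, eBayes with an intensity trend, two-sided, 4 residual and 8.44 prior degrees of freedom), and p-values were Benjamini-Hochberg adjusted over all genes, with 0.05 as the threshold. The fit was tested on simulated data, of which no outcome is given here. Levels of different probesets were not tested against each other. The levels of markers, and of genes beside the array medians, are a description only. The members and gene lists were chosen with earlier results of these data known. Every member is described; values per array are given for members that passed in any comparison or had an unadjusted p under 0.05 for genotype, and up to 4 genes with the smallest adjusted p are named from each other list, with Cblb and Orai1, chosen after their values were seen, as the 1 lower gene of their lists. Replicate numbers were not used to pair the arrays in the fit reported. Alternatives left out each array, added a replicate block or a Y-linked covariate, or changed the variance model, filter, probeset choice, array weights or normalization. Promoters are RefSeq's for GRCm38.p6.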

Additional observations from a re-analysis of the deposited data

Results flagged for a closer look

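Fosl1 had opposite differences between Th17 and Th1 cells in the 2 genotypes, with no overlap of the arrays in either. Th17 minus Th1 was 0.19 in wild-type and -0.28 in Tet2-/- cells, and the difference between them was -0.472 (limma adjusted p = 0.999), so it failed the correction. Of all genes, 2.6% showed such opposite differences without overlap.

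Dusp4 had opposite differences between Tet2-/- and wild-type cells in the 2 cell types. Tet2-/- minus wild-type was 0.30 in Th1 and -0.25 in Th17 cells, both arrays of each group lying on the side given. In Th17 cells the nearest arrays of the 2 genotypes both read 8.58 to 2 decimals. The difference between the 2 effects was -0.558 (limma adjusted p = 0.999), which also failed the correction. Of all genes, 4.82% showed such opposite differences without overlap.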

How the results depend on the processing

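In the 4 genotype comparisons 0 of 35 genes passed in each alternative run. Leaving out single arrays gave 5 to 10 calls for Th17 against Th1 in wild-type cells (8 in the fit reported), 3 to 12 in Tet2-/- cells (10) and 14 to 19 averaged over genotypes (18). A second quantile normalization gave 13 calls in wild-type and 14 in Tet2-/- cells, and the cause was not tested. Without wild-type Th17 replicate 1 and Tet2-/- Th17 replicate 2 together, chosen after seeing the data, there were 3 calls in Tet2-/- cells, 11 averaged over genotypes and an averaged median of -0.0443, with fewer arrays in the fit. The Y-linked covariate gave 8, 7 and 17 calls. The replicate block gave 8, 9 and 18 calls. Calls over all genes under these alternatives are not given here. The counts therefore do not show whether a change was particular to the 35 genes. The deviations of same-numbered arrays correlated at -0.189 to 0.0534 over all genes and at -0.27 to 0.22 over the members. These values do not show whether same-numbered samples shared a source. No single gene reversed a called direction. Signal near the array medians, as for Fos and Spry2, limits what these arrays can show.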
